A study of Arabidopsis thaliana with 18 samples.

Results

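The genes described here are 9 Arabidopsis thaliana genes of the main route of auxin synthesis: TAA1 (AT1G70560), TAR2 (AT4G24670), YUC1 (AT4G32540), YUC2 (AT4G13260), YUC4 (AT5G11320), YUC5 (AT5G43890), YUC6 (AT5G25620), YUC8 (AT4G28720) and YUC9 (AT1G04180). They were chosen by locus identifier from the 33602 loci of the count table. The table covered 18 RNA-seq libraries of leaf 5, with 3 libraries in each of 6 groups: the margin and the center piece of wild-type Col-0, of the tcp2-tcp4 mutant (called the double mutant below) and of the tcp2-tcp3-tcp4-tcp10 mutant (the quadruple mutant). Each library held the pieces of 15 to 20 plants, taken when leaf 7 emerged, at Zeitgeber time 6 (hours after lights on). Plates of 1 line followed those of the line before by 2 days, from the quadruple mutant to Col-0, and a difference of genotype and one of plant age therefore cannot be told apart. All plants grew on plates for 5 days and then in soil, at 23 °C, the light being on for 16 h and off for 8 h each day. Which alleles the mutants carry is not given in the sources used here, and both mutants still held transcripts of the mutated genes.

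Auxin (indole-3-acetic acid) is made in plants mainly from tryptophan in a pair of steps. TAA1 and its relative TAR2 are aminotransferases that turn tryptophan into indole-3-pyruvate, and the YUCCA (YUC) flavin monooxygenases turn that into auxin. In young Arabidopsis leaves, auxin made at the margin is known to guide blade outgrowth, serrations and veins. TCP2, TCP3, TCP4 and TCP10 encode transcription factors of the CIN class that are targets of miR319 and that end cell division in leaves.

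The 300 bases upstream of 4 annotated gene starts are printed 5′ to 3′ on the strand of the gene, from the RefSeq genome TAIR10.1. TAA1 (chr1:26604555-26604854, plus strand) and YUC2 (chr4:7724071-7724370, minus strand) are shown because their levels moved together across the libraries. YUC1 (chr4:15700529-15700828, plus strand) and TAR2 (chr4:12731332-12731631, minus strand) are shown because they held a core sequence that CIN-class TCP proteins are known to bind, in capitals.
TAA1: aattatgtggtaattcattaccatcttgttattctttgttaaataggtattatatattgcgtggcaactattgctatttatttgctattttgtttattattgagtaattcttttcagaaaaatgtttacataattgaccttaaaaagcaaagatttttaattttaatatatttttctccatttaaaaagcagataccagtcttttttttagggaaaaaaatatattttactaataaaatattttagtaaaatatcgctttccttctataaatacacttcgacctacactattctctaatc
YUC2: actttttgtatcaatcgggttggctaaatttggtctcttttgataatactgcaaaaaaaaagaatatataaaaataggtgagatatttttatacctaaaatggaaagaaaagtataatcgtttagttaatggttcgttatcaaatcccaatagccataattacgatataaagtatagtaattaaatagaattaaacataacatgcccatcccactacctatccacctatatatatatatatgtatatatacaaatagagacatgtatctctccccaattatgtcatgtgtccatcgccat
YUC1: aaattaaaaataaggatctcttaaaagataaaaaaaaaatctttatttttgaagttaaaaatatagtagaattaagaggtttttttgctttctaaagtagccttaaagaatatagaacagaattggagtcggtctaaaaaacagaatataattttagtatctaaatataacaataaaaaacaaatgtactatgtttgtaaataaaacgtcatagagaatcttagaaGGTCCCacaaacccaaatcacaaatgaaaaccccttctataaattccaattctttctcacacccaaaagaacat
TAR2: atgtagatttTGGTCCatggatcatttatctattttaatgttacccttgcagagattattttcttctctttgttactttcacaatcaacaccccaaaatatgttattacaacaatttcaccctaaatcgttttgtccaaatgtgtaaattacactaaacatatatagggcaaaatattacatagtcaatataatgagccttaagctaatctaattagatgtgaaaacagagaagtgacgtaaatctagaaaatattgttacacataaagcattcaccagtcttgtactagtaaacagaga
Both strands of the 9 upstream windows were searched for GGNCCC and TGGTCC. The window of YUC1 held GGTCCC, a match to GGNCCC, at 74 to 69 bases before the gene start. The window of TAR2 held TGGTCC at 290 to 285 bases before its start. The other 7 windows held neither sequence, and 13.5% of 27443 windows of the same length before annotated genes held at least 1 of them (8.2% GGNCCC, 6.88% TGGTCC). A match is a description of these letters and was not tested for binding.

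The libraries held 5932877 to 12018414 reads counted in genes. Reads that aligned to several places made up 3.71% to 4.97% of the reads in 16 libraries, 8.60% in Col-0 margin 1 and 16.0% in double mutant margin 3. TCP2 and TCP4 stood at 12.7% to 19.0% of their Col-0 level in the double mutant, and all 4 mutated genes at 8.11% to 24.8% in the quadruple mutant. TCP10 and TCP3 in the double mutant were at 99.8% to 153% of Col-0. Leaf blade markers (RBCS1A, LHCB1.1 and 3 others) were abundant in all 18 libraries, with summed levels of 30857 to 65901 CPM (reads of a gene scaled to a common library size). Of 5 root markers, RHD6, EXPA7 and EXPA18 had no read in any library, COBL9 had 5 reads and PIN2 80.

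Of the 9 genes, TAA1, TAR2, YUC2, YUC4 and YUC6 passed the filter on low counts, and edgeR's quasi-likelihood test was run on them. Adjusted p values below are Benjamini-Hochberg values over the 17763 loci tested. Those of another fit, where it is named, are over the loci of that fit. A gene was called where the adjusted p was under 0.05, and differences are log2 fold changes ± SE from 3 libraries per group. Levels are CPM scaled by TMM (trimmed mean of M values) and given as mean ± SD of 3 libraries. YUC1, YUC5, YUC8 and YUC9 did not pass, and their reads are given as counted. YUC4 passed through its reads in the quadruple mutant margin, where it was high, so that group had to differ once the gene was tested. YUC4 is therefore left out of the counts of genes called that involve this group, and its p values there come from the fit with no filter on low counts.

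**Figure D1:**
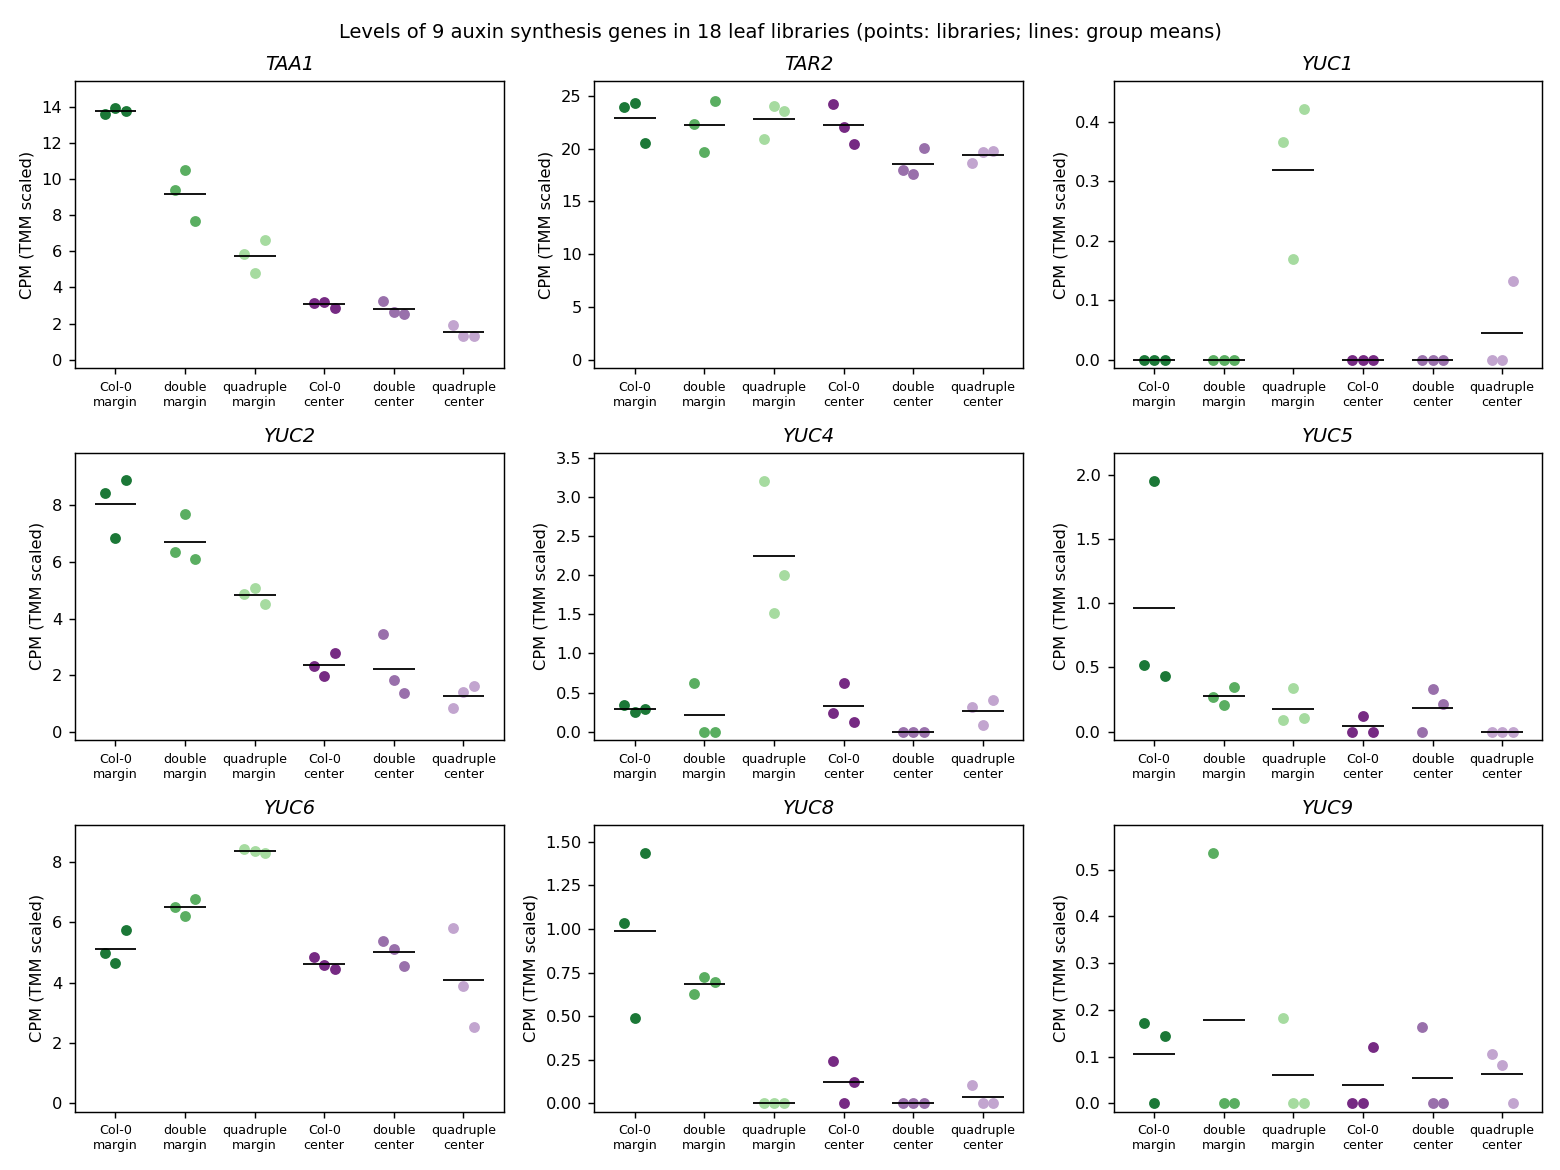
Level of each gene in CPM (linear scale) in the 18 libraries, in 6 groups of genotype and leaf piece. Points are libraries and lines are group means; TAA1 falls from 13.8 CPM in the Col-0 margin to 5.77 CPM in the quadruple mutant margin, while YUC4 is highest there at 2.24 CPM.

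Per length of exon, which allows levels to be compared between genes, TAR2 and TAA1 stood highest in the Col-0 margin. TAR2 was at 9.92 ± 0.898 CPM per kb there and TAA1 at 8.89 ± 0.108 CPM per kb. YUC2 followed with 3.73 ± 0.501 and YUC6 with 2.16 ± 0.237 CPM per kb. YUC8, YUC5, YUC4 and YUC9 were each at 0.568 CPM per kb or less, and YUC1 had no read. The quadruple mutant margin had another order of the YUC genes, with YUC6 at 3.52 ± 0.0251, YUC2 at 2.23 ± 0.128 and YUC4 at 1.04 ± 0.402 CPM per kb. TAA1 was at 3.73 ± 0.587 CPM per kb in that group and TAR2 at 9.88 ± 0.741.

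The first question was which of these genes differ between the margin and the center of a leaf. In Col-0, TAA1 and YUC2 were higher in the margin, and TAR2, YUC4 and YUC6 were not called. These were 2 of the 5 genes tested, beside 11.4% (5.3% higher, 6.13% lower) of all loci tested called in this comparison. In the double mutant the genes called were again TAA1 and YUC2, both higher in the margin beside 7.51% (2.47% higher, 5.04% lower) of all loci. For the quadruple mutant, TAA1, YUC2 and YUC6 were higher in the margin, 3 of the 4 genes other than YUC4, and 25.6% (12.1% higher, 13.5% lower) of all loci were called. Bulk tissue cannot tell fewer cells with a transcript from less transcript per cell, here and in every comparison below.

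TAA1, the aminotransferase of the first step, was at 13.6, 13.9 and 13.8 CPM in the 3 Col-0 margin libraries and at 3.15, 3.22 and 2.88 CPM in the center. It was at 9.38, 10.5 and 7.67 CPM in the double mutant margin and at 3.27, 2.65 and 2.55 CPM in the center. Quadruple mutant margin libraries held 5.86, 4.82 and 6.63 CPM and center libraries 1.90, 1.30 and 1.33 CPM. Every margin library stood above every center library of all 3 genotypes, with no overlap. The margin against center difference was 2.15 ± 0.16 in Col-0 (adjusted p = 1.51e-08), 1.73 ± 0.18 in the double mutant (adjusted p = 1.26e-06) and 1.92 ± 0.19 in the quadruple mutant (adjusted p = 3.61e-07). As linear ratios within a numbered pair of margin and center libraries, TAA1 was 4.31 to 4.78 times the center level in Col-0, 2.86 to 3.95 times in the double mutant and 3.08 to 4.98 times in the quadruple mutant.

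YUC2, a monooxygenase gene with the highest level per length among YUC genes in the Col-0 margin, stood at 8.43, 6.84 and 8.90 CPM in margin libraries of Col-0 and at 2.30, 1.98 and 2.76 CPM in center libraries. The double mutant held 6.34, 7.68 and 6.10 CPM in the margin and 3.44, 1.82 and 1.38 CPM in the center. The quadruple mutant held 4.86, 5.07 and 4.52 CPM in the margin and 0.846, 1.38 and 1.60 CPM in the center. As for TAA1, the lowest margin library was above the highest center library. The difference was 1.76 ± 0.23 in Col-0 (adjusted p = 3.18e-05), 1.67 ± 0.25 in the double mutant (adjusted p = 1.34e-04) and 1.92 ± 0.26 in the quadruple mutant (adjusted p = 1.34e-05).

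TAR2, the other aminotransferase gene, had group means from 18.5 to 22.9 CPM, and each group overlapped with its neighbor in that order. Its margin against center difference was 0.04 ± 0.10 in Col-0 (adjusted p = 0.835), 0.24 ± 0.10 in the double mutant (adjusted p = 0.169) and 0.24 ± 0.09 in the quadruple mutant (adjusted p = 0.0611). Both mutant differences were called when the leaf pool, which the library numbers mark, was used as a block: 0.26 with an adjusted p of 0.0403 in the double and 0.24 with 0.0134 in the quadruple mutant. In all 6 mutant pools TAR2 was 1.12 to 1.24 times as high in the margin as in the center.

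YUC6 stood at 4.99, 4.64 and 5.74 CPM in margin libraries of Col-0 and at 4.85, 4.58 and 4.44 CPM in center libraries, which overlapped. The quadruple mutant had 8.43, 8.36 and 8.31 CPM in the margin and 5.82, 3.91 and 2.53 CPM in the center. The margin libraries there lay close together and above all center libraries, which were spread widely. The margin against center difference was 0.14 ± 0.20 in Col-0 (adjusted p = 0.726), 0.38 ± 0.19 in the double mutant (adjusted p = 0.268) and 1.01 ± 0.18 in the quadruple mutant (adjusted p = 2.10e-04).

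YUC4 had 2 reads in each Col-0 margin library and 2, 5 and 1 in the center. The quadruple mutant held 35, 18 and 19 reads in the margin, or 3.21, 1.52 and 2.00 CPM, and 3, 1 and 3 reads in the center. The 3 quadruple mutant margin libraries stood apart from the other 15, of which the highest had 7 reads. The difference between margin and center was −0.17 ± 0.96 in Col-0 (adjusted p = 0.945) and, with no filter, 3.13 ± 0.59 in the quadruple mutant (adjusted p = 1.49e-04). In the double mutant 1 margin library had 7 reads and the other 5 libraries had none.

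**Figure D2:**
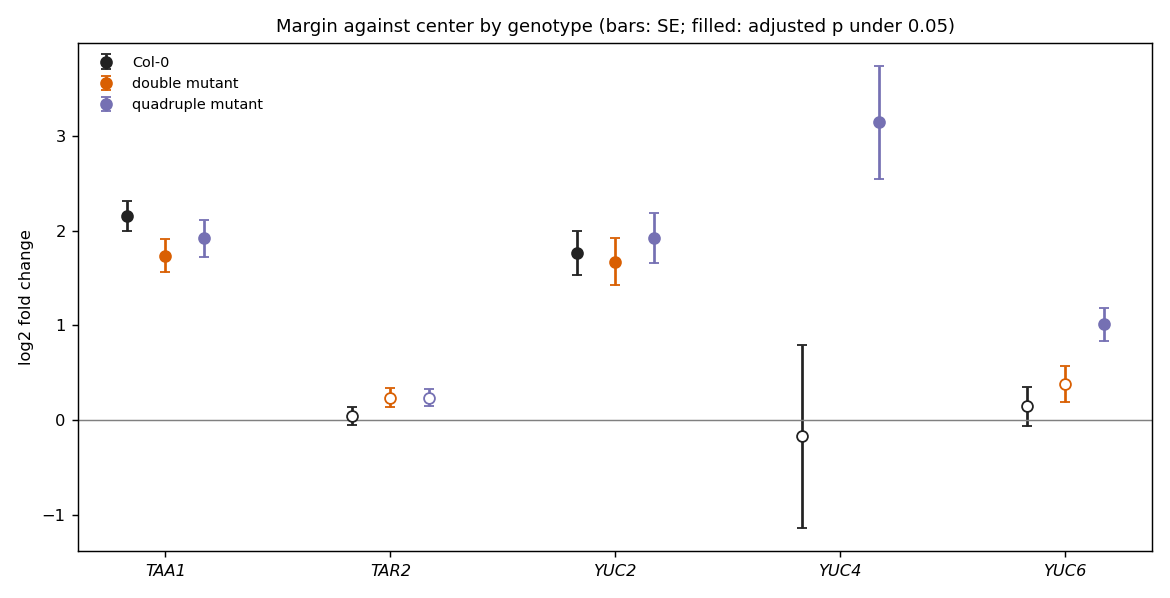
Log2 fold change of margin over center for the 5 genes tested, in each genotype (3 libraries per piece); bars are SE and filled points passed an adjusted p of 0.05. TAA1 and YUC2 lie between 1.67 and 2.15 in the 3 genotypes, while YUC6 is called in the quadruple mutant; YUC4 passed the filter through its quadruple mutant margin reads, and YUC4 in the double mutant is left out because its center had no read.

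Whether these margin against center differences differed between genotypes was tested with the interaction, the difference of 1 genotype minus that of the other. The interaction of the quadruple mutant against Col-0 was called for YUC6 alone of the 4 genes other than YUC4, at 0.87 ± 0.27 (adjusted p = 0.0311), where 17.2% (7.96% higher, 9.19% lower) of all loci were called. That call was lost with DESeq2 (adjusted p = 0.0783), with only these groups in the fit (adjusted p = 0.0517) and without the pair of libraries with the most reads aligned to several places (adjusted p = 0.0553). It held with the leaf pool as a block (adjusted p = 0.0111) and in 9 of 18 fits that each left out 1 library, with the highest adjusted p of 0.0792 without quadruple mutant center 2. For YUC4 the same interaction with no filter was 3.29 ± 1.16, with an adjusted p of 0.0573. With the filter and the leaf pool as a block it was 3.32. That value is given with no p, because YUC4 entered that fit through its quadruple mutant margin reads. For TAA1 the interaction, with the filter and no block, was −0.24 ± 0.28 (adjusted p = 0.649), with a 95% interval of −0.82 to 0.34. For YUC2 it was 0.16 ± 0.36 (adjusted p = 0.813), with an interval of −0.59 to 0.91. No gene of the 5 was called in the interaction of the double mutant against Col-0, where 0.439% (0.332% higher, 0.107% lower) of all loci were called. In that of the quadruple against the double mutant, none of the 4 genes other than YUC4 was called, beside 2.9% (1.43% higher, 1.47% lower) of all loci. DESeq2 called none of these genes in either. Without adjustment, 0 of 5 genes were under 0.05 in edgeR in the former, where TAA1 had −0.42 ± 0.26 (adjusted p = 0.596). In the latter 1 of the 4 was under 0.05, YUC6 (0.63 ± 0.26, adjusted p = 0.233).

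The next question was how the genes differ between genotypes within the margin. Against the Col-0 margin, TAA1 and YUC2 fell and YUC6 rose in the quadruple mutant margin, while TAR2 was not called. These were 3 of the 4 genes other than YUC4, and 43.9% (22.1% higher, 21.8% lower) of all loci were called in this comparison. In the double mutant margin TAA1 fell and the other 4 genes were not called, where 14.1% (6.33% higher, 7.81% lower) of all loci were called. Between the mutants, TAA1 was lower in the quadruple mutant margin, 1 of the 4 genes other than YUC4, beside 25.8% (12.2% higher, 13.6% lower) of all loci called. The comparisons with Col-0 share its libraries, so their values are given side by side.

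TAA1 had group means in the margin of 13.8 ± 0.167 CPM in Col-0, 9.17 ± 1.42 CPM in the double mutant and 5.77 ± 0.909 CPM in the quadruple mutant. The 3 groups of libraries did not overlap. TAA1 fell by 0.56 ± 0.14 in the double mutant against Col-0 (adjusted p = 0.00759) and by 1.26 ± 0.14 in the quadruple mutant (adjusted p = 3.15e-07). The quadruple mutant was lower than the double mutant, at −0.70 ± 0.14 (adjusted p = 9.80e-04). Without the pair of libraries that had the most reads aligned to several places, Col-0 margin 1 and double mutant margin 3, the difference of the double mutant was −0.48 with an adjusted p of 0.0515. TAA1 stood at 66.7% of the Col-0 margin level in the double and at 41.9% in the quadruple mutant.

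YUC2 had means of 8.06 ± 1.08 CPM in the Col-0 margin, 6.71 ± 0.852 CPM in the double mutant margin and 4.82 ± 0.276 CPM in the quadruple mutant margin. The Col-0 and double mutant libraries overlapped, and the quadruple mutant libraries lay below both. YUC2 fell by 0.73 ± 0.20 in the quadruple mutant against Col-0 (adjusted p = 0.00541). The double mutant against Col-0 was −0.25 ± 0.20 (adjusted p = 0.473), and the quadruple against the double mutant was −0.48 ± 0.20 (adjusted p = 0.0807), which was called with only these groups in the fit (adjusted p = 0.0393).

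YUC6 stood at 5.12 ± 0.563 CPM in the Col-0 margin, 6.51 ± 0.284 CPM in the double mutant margin and 8.37 ± 0.0597 CPM in the quadruple mutant margin. The 3 groups of libraries did not overlap. It rose by 0.71 ± 0.18 in the quadruple mutant against Col-0 (adjusted p = 0.00302), while the double mutant against Col-0 was 0.34 ± 0.19 (adjusted p = 0.272). The quadruple against the double mutant was 0.37 ± 0.17 (adjusted p = 0.116), called with only these groups in the fit (adjusted p = 0.0465).

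YUC4 had 72 reads in all in the quadruple mutant margin, against 6 for Col-0 and 7 for the double mutant. It was at 2.24 ± 0.869 CPM in the quadruple mutant margin and at 0.292 ± 0.0501 CPM in the Col-0 margin. With no filter, the difference was 2.90 ± 0.62 against Col-0 (adjusted p = 3.40e-04) and 3.04 ± 0.59 against the double mutant (adjusted p = 2.29e-04). For TAR2 the Col-0 margin had 22.9 ± 2.08 CPM and the quadruple mutant margin 22.8 ± 1.71 CPM. Its difference was −0.01 ± 0.09 (adjusted p = 0.973), with a 95% interval of −0.20 to 0.19.

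Markers of cell types and of dividing cells moved with the same contrast. In the quadruple mutant margin 5 of 5 leaf blade markers were lower than in the Col-0 margin, with summed levels of 30857 to 35319 against 63430 to 65901 CPM. All 6 phloem markers were lower (127 to 150 against 478 to 520 CPM) and all 5 mitotic markers higher (231 to 257 against 77.8 to 84.4 CPM). Of 5 guard cell markers 4 were lower (75.6 to 83.8 against 139 to 173 CPM) and of 5 xylem markers 3 (45.4 to 46.8 against 55.6 to 61.2 CPM). These counts stand beside 21.8% of all loci lower and 22.1% higher in this comparison. In the double mutant margin against Col-0, 4 of 5 leaf blade and 4 of 6 phloem markers were lower (7.81% of all loci). There 5 of 5 mitotic markers were higher (6.33% of all loci). In Col-0, 5 of 5 mitotic markers stood lower in the margin and 4 of 6 phloem markers higher, against the center. Over all loci 6.13% were lower and 5.3% higher. Against its center, the quadruple mutant margin had 5 of 5 mitotic markers higher (12.1% of all loci). There 5 of 5 xylem, 4 of 5 leaf blade and 3 of 6 phloem markers were lower (13.5%). In the quadruple mutant center against Col-0, 5 of 5 leaf blade and 4 of 6 phloem markers were lower (15.8%). There 4 of 5 xylem markers and 1 of 6 phloem markers were higher (15.2%). Of the root markers, PIN2 had 58 reads in the quadruple mutant margin, 12 in its center, 7 in the double mutant margin and 0 to 2 in each other group. Of 4 shoot meristem markers, KNAT1 had 9 reads in the quadruple mutant margin, 1 in its center and none elsewhere. STM had 1 read, also in the quadruple mutant margin, CLV3 had 2 reads and WUS none. The part of these markers in the differences of TAA1 and the YUC genes was not tested.

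**Figure D3:**
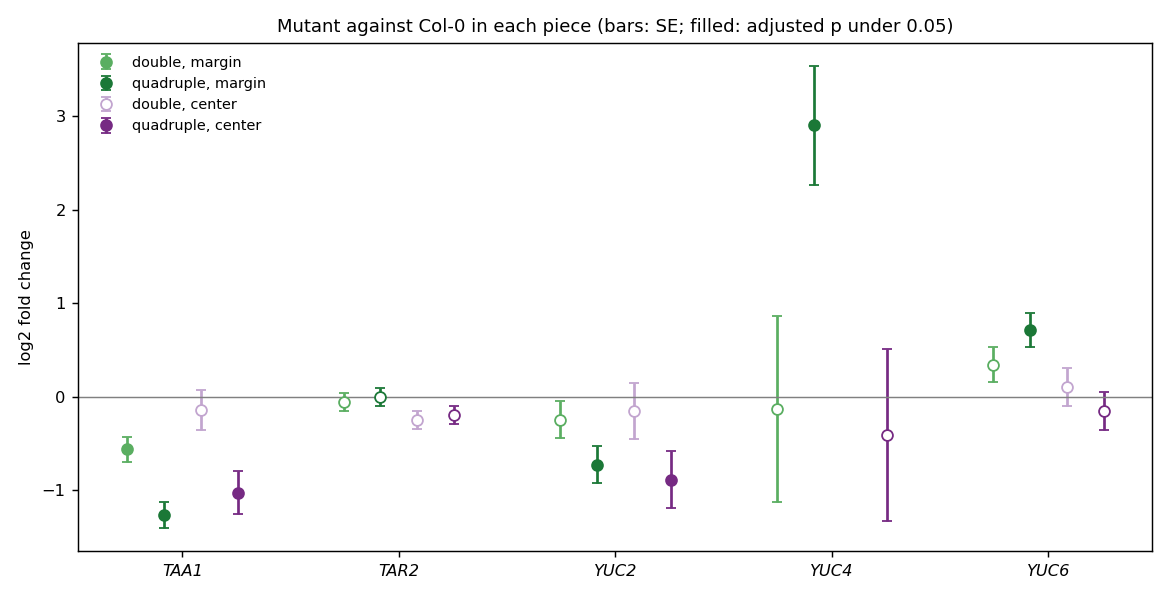
Log2 fold change of each mutant over Col-0 in the same leaf piece for the 5 genes tested (3 libraries per group); bars are SE and filled points passed an adjusted p of 0.05. In the quadruple mutant margin TAA1 and YUC2 lie at −1.26 and −0.73 and YUC4 and YUC6 at 2.90 and 0.71. YUC4 passed the filter through its reads in that margin, so its filled point there is not counted as a test. YUC4 in the double mutant center is left out because it had no read there.

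In the center, TAA1 and YUC2 fell in the quadruple mutant against Col-0, 2 of 5 genes where 31.1% (15.2% higher, 15.8% lower) of all loci were called. TAA1 fell from 3.09 ± 0.179 to 1.51 ± 0.340 CPM, a difference of −1.03 ± 0.23 (adjusted p = 0.00170), with no overlap between the libraries. YUC2 fell from 2.35 ± 0.392 to 1.28 ± 0.386 CPM, a difference of −0.89 ± 0.31 (adjusted p = 0.0333). The call for YUC2 was lost with DESeq2 (adjusted p = 0.0533) and held in 14 of 18 fits with 1 library left out; the lost calls reached an adjusted p of 0.137, without quadruple mutant center 1.

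No gene of the 5 was called between the double mutant center and the Col-0 center, where 6.15% (3.58% higher, 2.57% lower) of all loci were called by edgeR, and DESeq2 called none of the 5 either. Without adjustment, 2 of 5 genes were under 0.05 in edgeR: TAR2 (−0.25 ± 0.10, adjusted p = 0.140) and YUC4 (adjusted p = 0.155). YUC4 had 8 reads in the Col-0 center and none in the double mutant center. That is at least 2.33-fold lower if 0 reads count as at most 3 and the 8 reads are taken as counted. TAA1 was lower in the quadruple than in the double mutant center (−0.88 ± 0.24, adjusted p = 0.0300), the 1 gene called there beside 7.93% (3.56% higher, 4.37% lower) of all loci. That call was lost with DESeq2 (adjusted p = 0.0857) and with only these groups in the fit (adjusted p = 0.0866), and it held in 13 of 18 fits with 1 library left out, with the highest adjusted p of 0.156 without quadruple mutant center 2. YUC6 had 4.63 ± 0.208 CPM in the Col-0 center, 5.03 ± 0.430 CPM in the double mutant center and 4.08 ± 1.65 CPM in the quadruple mutant center, and these overlapped.

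Of the 4 genes with few reads, YUC8, a gene known to be induced in shade and warmth in Arabidopsis, had 6, 4 and 10 reads in the Col-0 margin and 7, 7 and 4 in the double mutant margin. It had no read in the 3 quadruple mutant margin libraries, and 1 read in 1 of the quadruple mutant center libraries. The quadruple mutant margin was therefore at least 10.3-fold below the Col-0 margin and at least 7.28-fold below the double mutant margin, counting 0 reads as at most 3 over a group. Without the count filter both differences were called, with adjusted p = 6.57e-05 and 6.92e-04, and they were called in 18 of 18 fits with 1 library left out. The Col-0 center held 2, 0 and 1 reads, 7.84-fold below the Col-0 margin with a counting interval of 2.32 to 41.2, and the double mutant center held none, at least 4.87-fold below its margin. Such intervals cover counting error only. Each bound takes the reads of the higher group as counted, so it covers the counting error of the group with 0 reads only.

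YUC5 had 3, 16 and 3 reads in the Col-0 margin, so that 1 library held most of its reads there, and 0, 1 and 0 in the center. The double mutant margin held 7 reads in all and the quadruple mutant margin 6. Without the count filter the Col-0 margin was called above the center (adjusted p = 0.00477) and above the quadruple mutant margin (adjusted p = 0.00925). Both calls were lost without Col-0 margin 2, with adjusted p = 0.151 and 0.367.

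YUC1 had 4, 2 and 4 reads in the quadruple mutant margin, 1 read in 1 quadruple mutant center library and none in the 12 libraries of Col-0 and the double mutant. Its level in the quadruple mutant margin was at least 2.17-fold above the Col-0 margin and at least 2.75-fold above the double mutant margin. Without the count filter these differences were called (adjusted p = 0.0375 and 0.0371), in 13 of 18 fits with 1 library left out; the highest adjusted p was 0.107 against Col-0, without Col-0 margin 2, and 0.121 against the double mutant, without double mutant margin 1. YUC9 had 14 reads in all 18 libraries, at most 6 in 1 library, and no difference was detectable at this depth.

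Summed over all 11 YUC genes, the level in the margin was 15.6 ± 1.33 CPM in Col-0, 14.6 ± 0.599 CPM in the double mutant and 16.0 ± 0.996 CPM in the quadruple mutant. The Col-0 libraries overlapped with those of both mutants, and the double mutant libraries (13.9 to 15.0 CPM) lay below the quadruple mutant libraries (15.4 to 17.1 CPM). In the center the sum was 8.19 ± 0.366, 7.93 ± 1.24 and 6.03 ± 1.20 CPM. The make-up of the margin sum differed by genotype. YUC2 gave 51.6% ± 3.39 of the YUC reads in the Col-0 margin, 45.8% ± 4.90 in the double mutant margin and 30.2% ± 2.31 in the quadruple mutant margin. YUC6 gave 32.9% ± 0.903, 44.6% ± 3.68 and 52.5% ± 2.83, and YUC4 1.88% ± 0.300, 1.39% ± 2.41 and 13.9% ± 4.50. YUC8 gave 6.19% ± 2.56 in the Col-0 margin, 4.68% ± 0.446 in the double mutant margin and no read in the quadruple mutant margin. These shares are of reads, not per length, and are given as a description with no test.

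**Figure D4:**
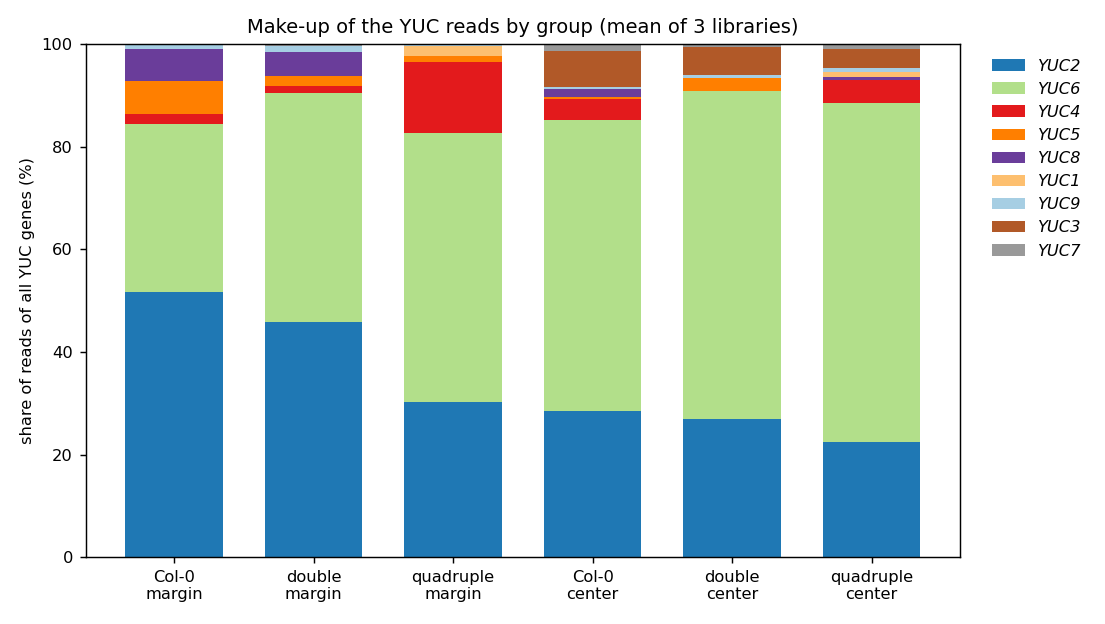
Share of each YUC gene in the reads of all 11 YUC genes (percent, mean of 3 libraries per group), by genotype and leaf piece. In the margin the share of YUC2 goes from 51.6% in Col-0 to 30.2% in the quadruple mutant and that of YUC4 from 1.88% to 13.9%. YUC6 holds the largest share in the 3 center groups and in the quadruple mutant margin (52.5%).

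Of the other genes of the same families, TAR1, YUC10 and YUC11 had no read in any library. YUC3 had 14 reads in the Col-0 center, 9 in the double mutant center and 6 in the quadruple mutant center, and none in the 9 margin libraries, at least 3.97-fold lower in the Col-0 margin than in its center. YUC7 had 1 to 3 reads in 5 of the 6 groups and none in the quadruple mutant margin.

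Genes that supply tryptophan or take auxin away were read from lists chosen with results of these data known. In the quadruple mutant margin against Col-0, 6 of 9 tryptophan synthesis genes fell and 1 rose, with a median of −0.27 beside 0.03 over all loci tested, of which 21.8% fell and 22.1% rose. TRP1, which acts early in the pathway, fell by 0.52 ± 0.07 (adjusted p = 4.66e-06) and PAI1 by 0.65 ± 0.10 (adjusted p = 2.15e-05), and the tryptophan synthase gene TSB2 rose by 0.48 ± 0.15 (adjusted p = 0.0144). In the center 6 of 9 fell and none rose (median −0.33 beside 0.01), where 15.8% of all loci fell and 15.2% rose, among them TRP1 (−0.60 ± 0.07, adjusted p = 2.96e-06). In the Col-0 margin against its center none of the 9 was called by edgeR, and none had an unadjusted p under 0.05.

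Of 7 genes of other routes to auxin 6 were tested, and in the quadruple mutant margin 3 fell and 1 rose, beside 21.8% and 22.1% of all loci. CYP79B3 and CYP79B2, which make indole-3-acetaldoxime, a precursor of indole glucosinolates and of auxin, fell by 4.24 ± 0.33 (adjusted p = 2.64e-09) and 3.71 ± 0.33 (adjusted p = 1.53e-08). CYP79B3 went from 32.4 ± 3.03 to 1.69 ± 0.299 CPM and CYP79B2 from 38.8 ± 3.59 to 2.92 ± 0.869 CPM. VAS1, an aminotransferase that returns indole-3-pyruvate to tryptophan, rose by 0.39 ± 0.07 (adjusted p = 5.24e-05). The Col-0 margin had less VAS1 than its center (−0.36 ± 0.07, adjusted p = 0.00101), while CYP79B2 was higher there (1.38 ± 0.27, adjusted p = 0.00174).

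Of 13 genes of auxin inactivation 9 were tested, and 3 rose and 2 fell in the quadruple mutant margin (median 0.31 beside 0.03). These 5 of 9 stand beside 43.9% of all loci called, and the 3 include GH3.2, which passed the filter through its reads in that margin. GH3 enzymes join auxin to amino acids, and GH3.2 had 95 reads in the quadruple mutant margin (2.96 ± 0.581 CPM), 4 in the Col-0 margin (0.163 ± 0.282 CPM) and 2 to 17 in each other group. GH3.17 had 33 reads in the quadruple mutant margin and none in the Col-0 margin, at least 7.15-fold higher. GH3.9 fell by 0.87 ± 0.17 (adjusted p = 3.20e-04) and GH3.5 by 1.18 ± 0.35 (adjusted p = 0.00951). Against Col-0, 4 of the 9 rose in the quadruple mutant center and none fell (15.2% and 15.8% of all loci), with GH3.6 at 1.35 ± 0.24 (adjusted p = 2.34e-04).

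Of 15 known regulators of TAA1 or YUC genes in Arabidopsis 12 were tested. In Col-0 6 of them were higher in the margin and none lower, with a median of 0.70 beside 0.00 over all loci, of which 5.3% were higher and 6.13% lower. NGA1, a B3 transcription factor of leaf and gynoecium margins, was higher by 1.54 ± 0.14 (adjusted p = 2.74e-07), and PIF7, a phytochrome-interacting factor known to activate YUC8 in shade, by 0.98 ± 0.12 (adjusted p = 1.06e-05). Against Col-0, 8 of the 12 fell and 3 rose in the quadruple mutant margin (median −0.94 beside 0.03), where 21.8% of all loci fell and 22.1% rose. PIF7 fell from 53.9 ± 0.490 to 18.6 ± 1.76 CPM (−1.53 ± 0.12, adjusted p = 2.89e-09) and PIF4 from 81.7 ± 3.58 to 43.2 ± 4.86 CPM (−0.92 ± 0.08, adjusted p = 2.29e-08).

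Among the 3 regulators that rose in the quadruple mutant margin, REV, an HD-ZIP III factor of the upper leaf side that is known to bind TAA1 and YUC5, rose by 0.96 ± 0.08 (adjusted p = 4.40e-09). WOX1, a homeobox factor of blade outgrowth, rose by 1.94 ± 0.23 (adjusted p = 6.90e-07). Of the 12, 4 fell and 2 rose in the quadruple mutant center (median −0.41 beside 0.01), where 15.8% of all loci fell and 15.2% rose, with NGA2 at −2.27 ± 0.18 (adjusted p = 2.04e-08) and NGA1 at −1.82 ± 0.20 (adjusted p = 1.08e-06). In the double mutant margin 5 of 12 fell and 1 rose, beside 7.81% and 6.33% of all loci, with PIF5 at −0.57 ± 0.11 (adjusted p = 9.75e-04) and WOX1 at 1.00 ± 0.26 (adjusted p = 0.0122).

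**Figure D5:**
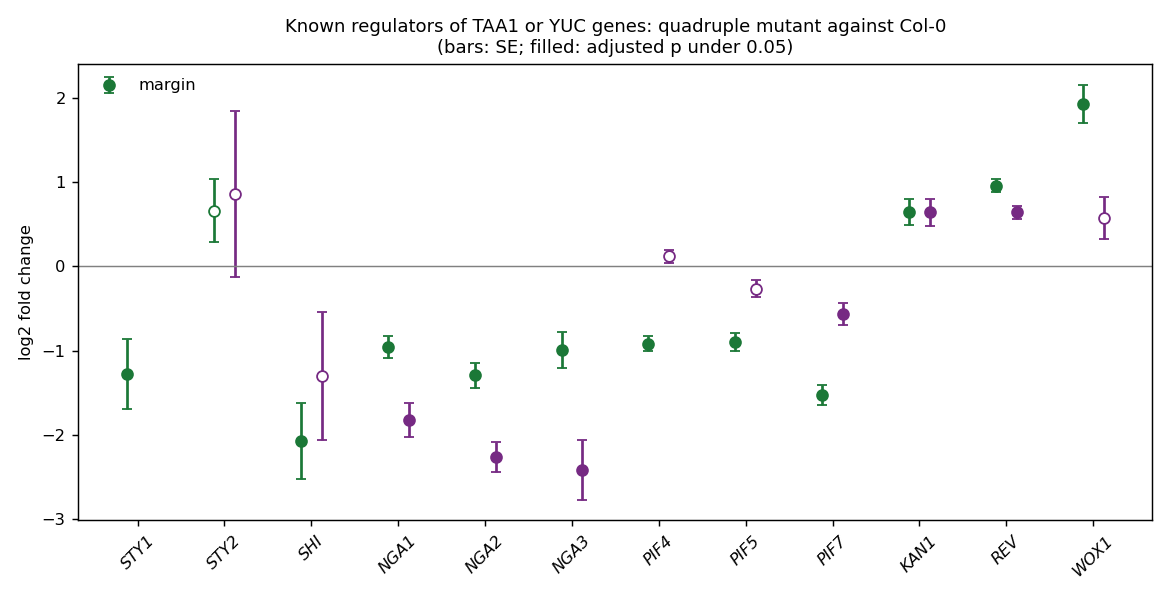
Log2 fold change of the quadruple mutant over Col-0 in the margin and in the center for the 12 known regulators tested (3 libraries per group); bars are SE and filled points passed an adjusted p of 0.05. In the margin PIF7 lies at −1.53 and WOX1 at 1.94; the center value of STY1 is left out because neither group had more than 3 reads.

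For the 4 genes with a mean of at least 1 CPM over the 18 libraries (TAA1, TAR2, YUC2 and YUC6), the loci with the most like pattern were found by Pearson correlation of log2 CPM over the 18 libraries among 7852 loci with a symbol. These values describe libraries that share genotype, piece and depth. TAA1 was most like DES1, an L-cysteine desulfhydrase gene (r = 0.980), and NGA1 (r = 0.955). For DES1 the Col-0 margin was at 15.3 CPM and its center at 2.76 CPM, against 5.63 and 0.578 CPM in the quadruple mutant. YUC2 was most like TAA1 (r = 0.940) and NGA3 (r = 0.933), YUC6 like WDR5a (r = 0.883) and the trihelix factor gene PTL (r = 0.821), and TAR2 like the RNA-binding protein gene RBP47C (r = 0.899) and the cold shock domain protein gene CSDP1 (r = 0.888).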

How the data were processed

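The authors deposited raw read counts per locus for 18 RNA-seq libraries. Per the submitters' processing notes, the tools were HTSeq 0.7.2, TopHat2 2.0.13 and edgeR 3.8.6, and the build was TAIR10. The sources used here do not give strand or annotation settings. The 5 summary rows of the counter were left out (no feature 0.497% to 1.15%, ambiguous 1.38% to 1.57% of reads). From the deposited counts, loci were filtered by group size and library size (17763 of 33602 kept), scaled by TMM and fitted with 1 mean per group over the 18 libraries by edgeR 4.0.16 in R 4.3.3, with Benjamini-Hochberg adjustment in each of 12 comparisons. The procedure was tested on simulated data. DESeq2 1.42.0, upper-quartile scaling, no filter, only the groups compared, a replicate block and leaving out each library were alternatives. Gene names and coordinates are from RefSeq TAIR10.1, where 97.7% of the loci had a record.

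The genes, lists and tests were chosen with earlier results of these data known. From each list, at most the 2 called genes with the lowest adjusted p in each direction were named per comparison. Margin and center libraries with the same number deviated together (r = 0.196 to 0.384 in 9 of 9 pairs), so the number marks a leaf pool there. Same-numbered libraries of different genotypes did not (r = −0.233 to 0.173). The fit reported, with its SEs and its shares of all loci called, did not use this pairing. The leaf pool was a block only where that is said. Each library is a pool of 15 to 20 plants, and nothing says that pools were grown apart, so p values measure the spread between these libraries. Depth was 5932877 to 12018414 reads in genes. Counting intervals cover counting error only, at a 95% level. A bound, given as "at least", counts 0 reads as at most 3 over a group. It takes the reads of the other group as counted, so it is not a 95% limit of the fold.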

Additional observations from a re-analysis of the deposited data

Results flagged for a closer look

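The margin against center difference of YUC6 differed between the quadruple mutant and Col-0 by a test of the difference itself, at 0.87 on the log2 scale (interaction in edgeR, adjusted p = 0.0311). Within numbered pairs of libraries the linear ratio of margin to center was 1.45, 2.14 and 3.29 in the quadruple mutant and 1.03, 1.01 and 1.29 in Col-0, higher in 3 of 3 quadruple mutant pairs than in any Col-0 pair. In the double mutant it was 1.21, 1.21 and 1.49. These ratios come from the same counts as the test and add no separate support. The call was not stable: it held in 9 of 18 fits that left out 1 library, and the adjusted p rose to 0.0792 without quadruple mutant center 2.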

How the results depend on the processing

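Counts are of the 5 genes tested, YUC4 included, or of all 9 with no filter. YUC4 passed the filter through its quadruple mutant margin reads, so its calls in filtered fits that involve this group are no test of stability. With no filter on low counts, 4 genes were called in Col-0 margin against center (2 in the fit reported), 7 in the quadruple mutant margin against Col-0 (4) and 4 between the mutant margins (2). With only the groups compared in the fit, 4 were called between the mutant margins and 0 between the mutant centers (1). DESeq2 called 1 in the quadruple mutant center against Col-0 (2), 0 between the mutant centers and 0 in the interaction between the quadruple mutant and Col-0 (1). With the leaf pool as replicate block that interaction gave 2, and the block moved the count over all loci in Col-0 margin against center from 2030 to 3836 and in the double mutant from 1334 to 3041. With this block TAR2 was also called higher in the margin than in the center of both mutants. Leaving out both libraries with the most reads aligned to several places, chosen after seeing the data, gave 0 in the double mutant margin against Col-0 (1) and 0 in the interaction. The causes were not tested. Leaving out 1 library at a time gave 4 to 5 genes in the quadruple mutant margin against center, 2 to 3 between the mutant margins, 1 to 2 in the quadruple mutant center against Col-0, 0 to 1 between the mutant centers, 0 to 2 in the interaction of the quadruple mutant with Col-0 and 0 to 1 in that with the double mutant.

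Uncalled log2 differences changed sign as follows. The TAR2 interaction between the mutants was −0.016 with upper-quartile scaling, −0.013 with no filter, −0.022 with the replicate block and −0.016 with DESeq2. Without both libraries YUC4 in the double mutant margin against Col-0 was 0.33 and TAR2 in the quadruple mutant margin 0.021. With 1 library left out, margin against center ranged from −0.015 to 0.12 for TAR2 and from −0.56 to 0.62 for YUC4 in Col-0, and from 0 to 4.85 for YUC4 in the double mutant. In the double mutant margin against Col-0, TAR2 ranged from −0.13 to 0.021 and YUC4 from −4.35 to 0.48. In the quadruple mutant margin TAR2 ranged from −0.079 to 0.049 against Col-0 and from −0.025 to 0.12 against the double mutant. Against Col-0 in the center, YUC2 ranged from −0.59 to 0.16 in the double mutant, YUC4 from −0.80 to 0.39 and YUC6 from −0.47 to 0.063 in the quadruple mutant. The YUC2 interaction ranged from −0.41 to 0.34 (double mutant, Col-0), from −0.053 to 0.28 (quadruple mutant, Col-0) and from −0.18 to 0.57 (between the mutants), where YUC4 ranged from −1.71 to 3.14 and TAR2 from −0.079 to 0.063.

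YUC4 could not be fitted with only the groups compared where neither was the quadruple mutant margin. Few reads limit YUC1, YUC5, YUC8 and YUC9, with 11, 40, 42 and 14 reads in all libraries.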
